A study of Mus musculus with 8 samples.

Results

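Expression of 10 apolipoprotein and lipoprotein assembly genes was read from RNA sequencing of mouse liver. The members were chosen by gene symbol alone, as *Apoa1*, *Apoa2*, *Apoa4*, *Apoa5*, *Apob*, *Apoc1*, *Apoc2*, *Apoc3*, *Apoe* and *Mttp*. They are 10 of the 19267 genes in the table of read counts, and all 10 passed the filter on low counts that kept 13993 genes. The study asked how the loss of *Elf4*, an ETS family transcription factor gene, from intestinal epithelium bears on the liver during alcohol feeding. All mice were male C57BL/6 mice, 9 weeks old at sampling. *Elf4-/-* mice carried floxed *Elf4* and a Cre transgene under the villin promoter, so the deletion lies in intestinal epithelium and not in hepatocytes. WT mice were Cre mice according to the study's methods. Feeding began at 6 weeks of age and lasted 21 days. EtOH mice received alcohol at 5% (weight per volume) in Lieber-DeCarli liquid food, while in the food of their pair-fed Control partners maltose dextrin supplied those calories. This gave 4 groups of 2 libraries each, which are named here by genotype and then diet, such as *Elf4-/-* EtOH.

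Lipoproteins carry triglyceride and cholesterol through blood as particles coated with apolipoproteins, and the liver is the main source of very low density lipoprotein (VLDL) and of much high density lipoprotein (HDL). ApoB is the backbone of VLDL and takes up its lipid in the endoplasmic reticulum with the help of the microsomal triglyceride transfer protein that *Mttp* encodes. ApoA-I and ApoA-II build HDL, the small ApoC proteins and ApoA-V set how fast lipoprotein lipase empties triglyceride-rich particles, and ApoE is the ligand through which remnants are taken up.

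Most of the members are neighbours in the genome. In the GENCODE M21 annotation of GRCm38, all are protein coding. *Apoa1* (chr9:46228580-46230466, plus strand), *Apoc3* (chr9:46232933-46235636, minus strand), *Apoa4* (chr9:46240696-46243459, plus strand) and *Apoa5* (chr9:46268633-46271919, plus strand) lie within 43340 bases. *Apoc2* (chr7:19671579-19677941), *Apoc1* (chr7:19689481-19692660) and *Apoe* (chr7:19696109-19699188) lie on the minus strand within 27610 bases. The remaining members stand alone, *Apoa2* at chr1:171225054-171226379 and *Apob* at chr12:7977648-8016835 on the plus strand and *Mttp* at chr3:138089854-138144968 on the minus strand. Overlapping annotation touches some of these values. Of the exonic bases of *Apoc2*, 79.5% are shared on the same strand with the annotated gene *Gm44805*, so that its reads can be ambiguous. Of those of *Apoa4*, *Apoa5* and *Mttp*, 69.8%, 20.8% and 9.49% face exons on the opposite strand, and whether the counting used strand was not stated.

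The upstream sequences of 3 members are shown because *Apoa1* and *Apoa5* are neighbours whose counts moved in opposite directions in WT, while *Apob*, the core of VLDL, was nearly level. Each run holds 200 bases of GRCm38, from base 250 to base 51 before the RefSeq transcription start, written 5′ to 3′ on the plus strand, which is the strand of all 3 genes. Capitals mark a TATAAA motif. The windows are chr9:46228380-46228579 for *Apoa1*, chr9:46268383-46268582 for *Apoa5* and chr12:7977427-7977626 for *Apob*.
Apoa1: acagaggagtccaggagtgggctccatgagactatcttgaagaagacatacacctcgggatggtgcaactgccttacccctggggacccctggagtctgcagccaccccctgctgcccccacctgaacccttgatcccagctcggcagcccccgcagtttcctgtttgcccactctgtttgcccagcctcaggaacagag
Apoa5: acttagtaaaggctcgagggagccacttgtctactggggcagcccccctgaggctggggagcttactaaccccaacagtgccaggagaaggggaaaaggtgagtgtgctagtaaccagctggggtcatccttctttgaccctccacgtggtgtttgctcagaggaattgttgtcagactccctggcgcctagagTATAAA
Apob: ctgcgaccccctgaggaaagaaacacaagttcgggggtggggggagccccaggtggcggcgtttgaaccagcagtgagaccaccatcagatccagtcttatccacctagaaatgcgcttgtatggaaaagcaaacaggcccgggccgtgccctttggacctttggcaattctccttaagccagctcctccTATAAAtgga
The windows of the 8 members with an entry in the RefSeq table were searched on both strands for the TATA box TATAAA, for the CCAAT box, for the nuclear receptor half-site AGGTCA, and for the longer forms AAAGTCCA and, containing that half-site, AAAGGTCA. TATAAA was found in the windows of *Apoa5*, *Apob* and *Apoa2*, and it occurred in 9.14% of all 32851 windows of that length. The *Apoa2* window also held CCAAT on the opposite strand, a motif of 28.4% of all windows, and the *Apoc2* window held AGGTCA, found in 11.4%. None of the 5 motifs was in the windows of *Apoa1*, *Apoa4*, *Apoe* or *Mttp*. The windows stop at base 51 before the RefSeq start, so motifs nearer that start, where a TATA box usually lies, were not searched. Whether these genes have a TATA box there was not tested. The motifs AAAGTCCA (0.785% of all windows) and AAAGGTCA (1.08%) were in none of the 8 windows. The RefSeq start used lay 1550 bases from the GENCODE start for *Mttp*, 148 for *Apoa4*, 50 for *Apoa1* and 29 for *Apob*. The *Mttp* window therefore lies wholly within the gene span given above, and part of the *Apoa4* window does. The *Apoa1* window ends directly before the gene start given above, so by that start it does reach the nearest bases. *Apoc1* and *Apoc3* were not analysed here in this respect.

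Library totals ran from 6171051 to 9157362 counts. The 27 mitochondrial genes took 23.4% and 33.7% of counts under Control and 10.8% and 12.5% under EtOH in WT, against 18.3% to 22.1% in the *Elf4-/-* libraries, which shifts shares of the total. Levels are therefore given as CPM, counts relative to a common library size, scaled by TMM, a method that sets the bulk of genes level between libraries. Replicates differed most in *Elf4-/-* EtOH, with an SD of the log2 difference of 0.681 over 9398 genes, against 0.354 to 0.504 in the other groups. *Elf4* itself had 6 to 36 counts per library, which checks nothing about an intestinal deletion. Of 10 hepatocyte markers, 9 were in the table, all with at least 10 counts in every library. Nothing in the labels says that the libraries of a group came from separate animals, so every p-value below measures the spread between these libraries only. In whole liver, fewer cells of a type cannot be told apart from less RNA per cell.

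In WT the members together took 3.27% and 4.95% of counts under Control and 4.64% and 4.66% under EtOH. Their share in *Elf4-/-* was 4.78% and 5.09% under Control and 3.18% and 4.73% under EtOH. The diets overlapped in WT and the genotypes overlapped under both diets. In *Elf4-/-* the diets did not overlap, with 4.73% in the higher EtOH library against 4.78% in the lower Control library, while the other EtOH library had 3.18%. The make-up of the member counts differed between the diets, in percentage points most for *Apoa1* and *Apoe*, by more than the spread of replicates. Smaller shares also lay apart between the diets. For *Apoa2* they were 16.1% to 19.8% under Control and 21.2% to 23.4% under EtOH, and for *Mttp* 0.279% to 0.426% and 0.508% to 0.832%. *Apoa1* made up 33.8% ± 2.73 (SD, n = 2) of the member counts under Control and 7.92% ± 3.29 (SD, n = 2) under EtOH in WT. *Apoe* made up 23.0% ± 3.34 (SD, n = 2) and 46.2% ± 2.44 (SD, n = 2) under these diets. In *Elf4-/-*, the share of *Apoa1* was 31.3% ± 0.418 (SD, n = 2) under Control and 15.2% ± 1.03 (SD, n = 2) under EtOH, and that of *Apoe* was 27.5% ± 0.987 and 37.3% ± 1.82 (SD, n = 2). The first place passed from *Apoa1* in all 4 Control libraries to *Apoe* in all 4 EtOH libraries. These shares do not move with the scaling of the libraries, but each rises when another falls, and they carry no test.

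**Figure D1:**
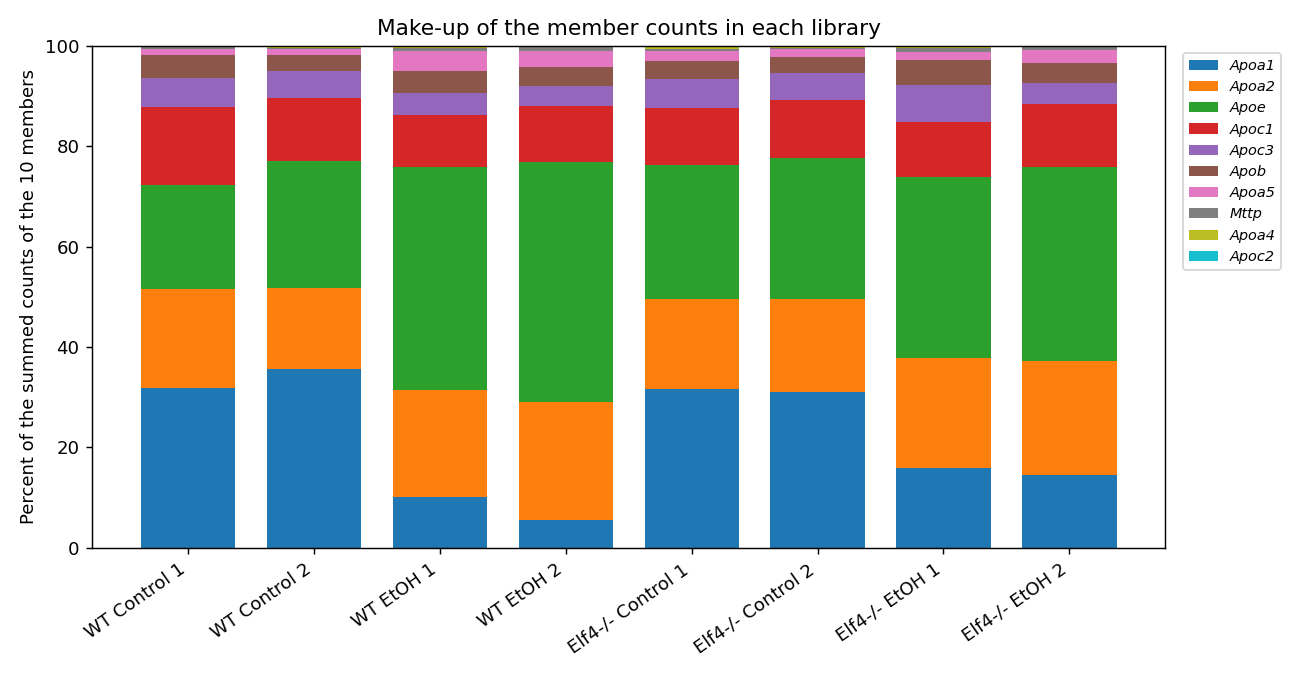
Each bar is 1 liver library, and its segments give the percent of the summed counts of the 10 members that fell on each gene, from 0 to 100%. The *Apoa1* segment averages 33.8% under Control and 7.92% under EtOH in WT, while the *Apoe* segment averages 23.0% and 46.2%.

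Per kilobase of annotated exon, which allows a comparison between genes, *Apoa2* stood highest in WT Control at 15633.6 ± 1764.1 CPM per kb (SD, n = 2), and *Apoa1* followed at 13128.2 ± 4376.9 (SD, n = 2). These levels differed by less than the spread of *Apoa1*. In WT EtOH, the level of *Apoa2* was 16663.6 ± 592.7 CPM per kb and that of *Apoa1* 2588.3 ± 1153.9 (SD, n = 2). *Apoc1*, *Apoe* and *Apoc3* came next in WT Control at 8832.8, 5205.1 and 2578.6 CPM per kb, then *Apoa5* and *Apob* at 217.8 and 129.0, and *Apoa4*, *Mttp* and *Apoc2* at 67.9, 23.2 and 5.79. Exon lengths are those of all annotated transcripts of a gene together. A gene with rare long isoforms is therefore set too low on this scale. The place of *Apoc2* is uncertain, since its reads can be ambiguous as given above.

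**Figure D2:**
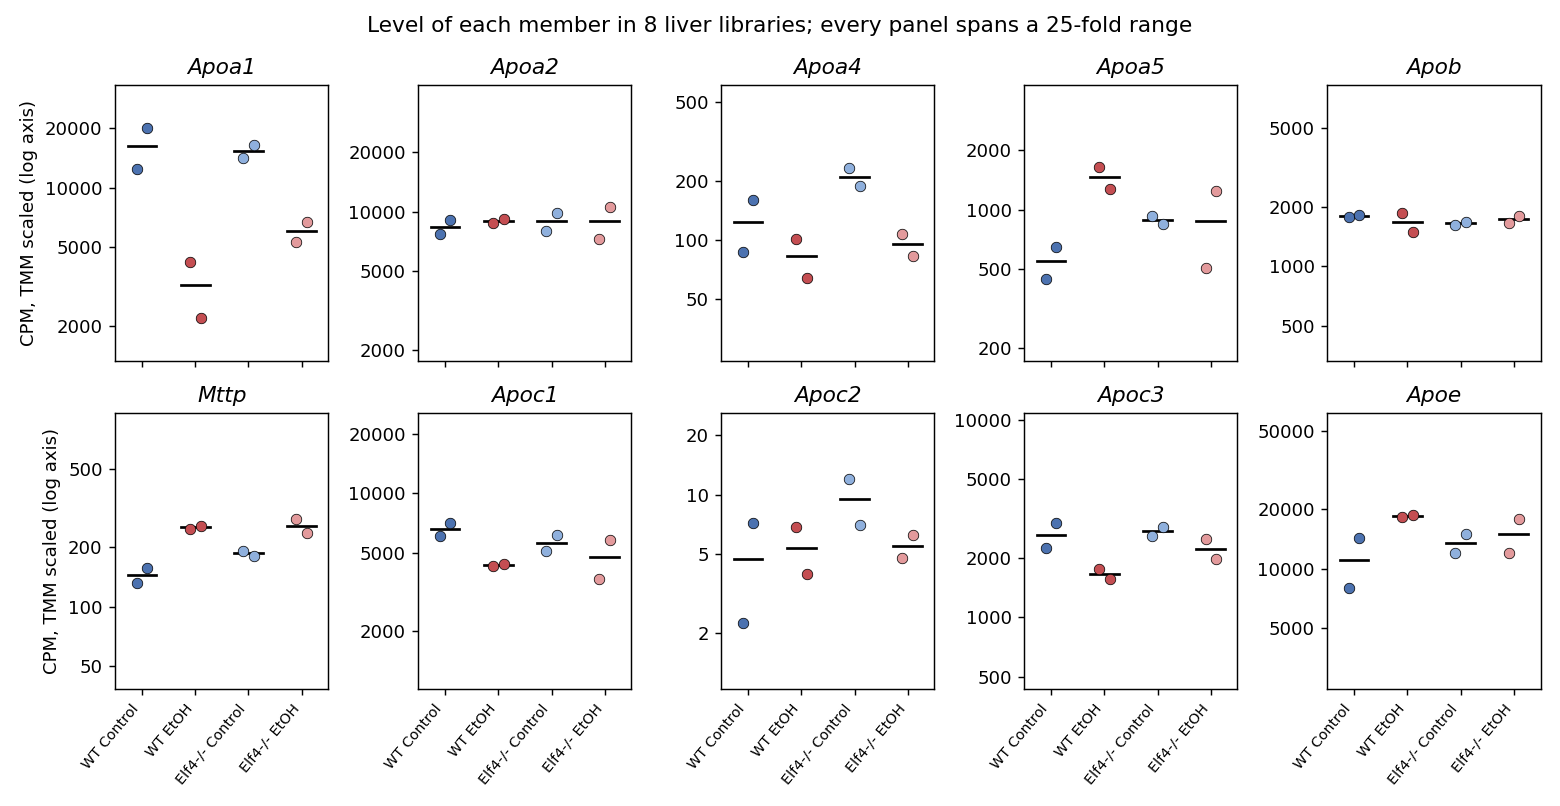
CPM of each member in every library (points) with the group mean (line), on log axes of equal span, for each genotype on each diet. The 4 EtOH libraries lie below the 4 Control libraries in the *Apoa1* panel and above them in the *Mttp* panel, and the diets overlap in the other panels.

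The response to alcohol was compared within each genotype and then averaged over both. In WT livers, alcohol feeding was followed by a 5.07-fold lower level of *Apoa1*, a 2.66-fold higher level of *Apoa5* and a 1.75-fold higher level of *Mttp*. These 3 of 10 members passed an adjusted p of 0.05, 2 higher and 1 lower, beside 21.6% of all genes tested (10.8% higher and 10.8% lower). The median log2 fold change of the members was -0.01, and that of all genes tested was 0.01. The members' share of calls was thus close to that of the whole table. In *Elf4-/-* livers none of the 10 members passed, beside 2.89% of all genes, and 2 had an unadjusted p under 0.05, beside 21.2%. The DESeq2 Wald test called 2 members there, *Apoa1* and *Apoa4* (Benjamini-Hochberg adjusted p = 0.00165 and 0.0128). Averaged over the genotypes, *Apoa1* and *Apoa4* were lower and *Mttp* higher under EtOH, which is 3 of 10 members beside 28.0% of all genes (14.1% higher and 13.8% lower).

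Of the genes for the main HDL proteins, *Apoa1* passed the test and *Apoa2* did not. *Apoa1*, which encodes the main protein of HDL and the activator of lecithin cholesterol acyltransferase, had 12401.1 and 20051.8 CPM under Control and 4207.6 and 2190.7 CPM under EtOH in WT. Livers of *Elf4-/-* mice had 14158.7 and 16534.2 CPM under Control and 5323.9 and 6700.2 CPM under EtOH. All 4 EtOH libraries lay below all 4 Control libraries, as 14.0% of all genes tested did. The log2 fold change in WT was -2.34 ± 0.42 (SE, 95% interval -3.29 to -1.40), with an adjusted p = 0.00592 by the quasi-likelihood test of edgeR after Benjamini-Hochberg correction over all genes. This call was lost without WT EtOH replicate 2, where the log2 fold change was -1.95 (adjusted p = 0.0594 by edgeR), and it stood in the other 15 of 16 alternatives. In *Elf4-/-* the log2 fold change was -1.35 ± 0.41 (SE, 95% interval -2.27 to -0.43), with an unadjusted p of 0.00822 in edgeR's fit over all genes and an adjusted p of 0.101. Averaged over both genotypes it was -1.85 ± 0.30 (SE, edgeR adjusted p = 0.00215), a 3.60-fold lower level that was called in all 15 alternatives.

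Against albumin, another abundant hepatocyte transcript, *Apoa1* also lay lower under EtOH. The log2 ratio of *Apoa1* to *Alb* counts, chosen after the values were seen, was -1.35 and -1.01 under Control and -2.58 and -3.31 under EtOH in WT. In *Elf4-/-* it was -1.53 and -1.37 under Control and -2.33 and -2.41 under EtOH. The ratio therefore moved in the same direction as the level in both genotypes. The summed level of the 9 hepatocyte markers was 52847.1 to 71151.2 CPM under Control and 39242.0 to 48775.9 under EtOH in WT, and 58508.8 to 65507.4 and 47896.9 to 57134.2 on the same diets in *Elf4-/-*. Its part in the *Apoa1* result was not tested.

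*Apoa2*, which encodes another major HDL protein, had 7725.4 and 9065.1 CPM under Control and 8723.3 and 9173.4 CPM under EtOH in WT. The *Elf4-/-* libraries had 8026.8 and 9847.7 CPM under Control and 7313.5 and 10543.6 CPM under EtOH. Diets and genotypes overlapped throughout. The averaged diet effect was 0.05 on the log2 scale with a 95% interval of -0.47 to 0.56 (edgeR, Benjamini-Hochberg adjusted p = 0.902), so a change of either sign within these bounds is not excluded. The log2 ratio of *Apoa2* to *Apoa1* counts was -0.91 ± 0.33 (SD, n = 2) under Control and 1.56 ± 0.72 (SD, n = 2) under EtOH in WT. In *Elf4-/-* it was -0.78 ± 0.05 and 0.56 ± 0.14 (SD, n = 2). The order of the HDL transcripts by counts was thus turned in both genotypes.

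*Apoa4*, whose product is linked to lipid absorption and is made in intestine and, in mice, also in liver, had 87.3 and 159.0 CPM under Control and 100.6 and 64.5 CPM under EtOH in WT, which overlapped. In *Elf4-/-* it had 230.6 and 187.7 CPM under Control and 107.1 and 83.1 CPM under EtOH, with no overlap, as for 26.3% of all genes in that direction. The log2 fold change was -0.58 ± 0.32 in WT (SE, edgeR, Benjamini-Hochberg adjusted p = 0.22) and -1.14 ± 0.32 in *Elf4-/-* (SE, 95% interval -1.85 to -0.42, adjusted p = 0.0837, unadjusted 0.00523 over all genes fitted). Averaged over the genotypes, *Apoa4* fell by 0.86 on the log2 scale (SE 0.23, edgeR adjusted p = 0.0199). That call was lost without WT Control replicate 2 (-0.61, adjusted p = 0.0661), WT EtOH replicate 2 (-0.72, adjusted p = 0.0801) or *Elf4-/-* Control replicate 1 (-0.78, adjusted p = 0.0718), and stood in 12 of 15 alternatives. Markers of intestinal epithelium, which also makes *Apoa4*, were mostly absent from the table. *Fabp2*, which had the most counts of them, ran from 33.6 to 111 CPM, beside 64.5 to 230.6 CPM for *Apoa4*. Of 11 listed, 4 were in the table, with 2 to 19 counts for *Vil1*, 0 to 14 for *Muc2*, 41 to 103 for *Lgr5* and 211 to 910 for *Fabp2*. *Vil1* and *Muc2* reached at most 1.95 and 2.23 CPM, so the summed level of the 4 rested mostly on *Fabp2*. Under Control that sum was 102.2 to 103.8 CPM in *Elf4-/-* and 63.6 to 71.8 in WT. Under EtOH it was 43.5 to 119.4 and 42.1 to 64.2 in the same order. Its part in the *Apoa4* result was not tested.

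**Figure D3:**
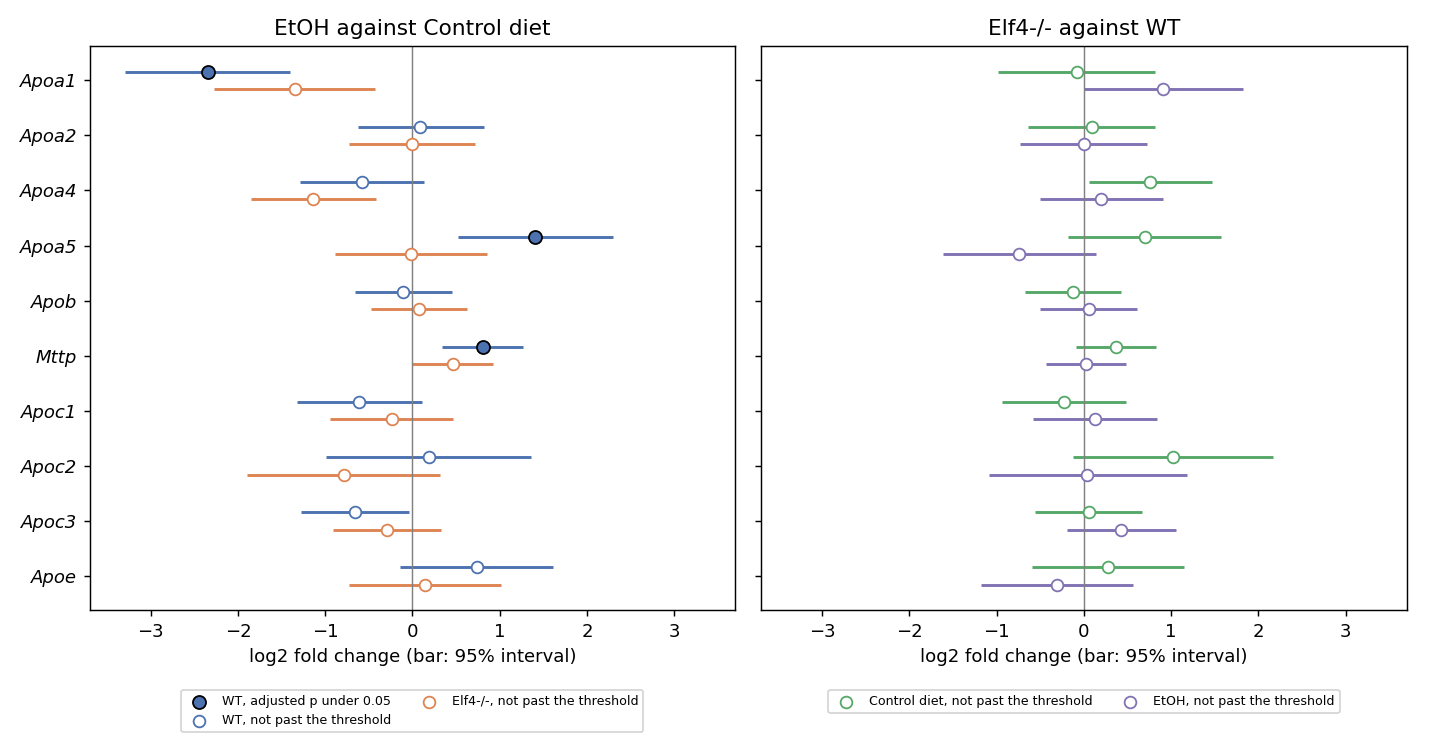
Log2 fold changes of the members with 95% intervals, for EtOH against Control in WT and in *Elf4-/-* (left) and for *Elf4-/-* against WT under each diet (right), where filled points passed an adjusted p of 0.05. In WT, *Apoa1* lies at -2.34, *Apoa5* at 1.41 and *Mttp* at 0.81 and these 3 points are filled, and no point is filled for *Elf4-/-* or for a genotype difference.

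Of the assembly genes, *Mttp* was higher under EtOH and no change of *Apob* was detectable. *Apob* encodes the structural protein of VLDL and of chylomicrons. Under Control it had 1773.2 and 1821.5 CPM in WT and 1620.0 and 1681.7 in *Elf4-/-*, and under EtOH 1854.8 and 1484.1 in WT and 1664.4 and 1807.2 in *Elf4-/-*. It varied least of the members, with a 1.25-fold range over 8 libraries. The averaged diet effect was -0.02 ± 0.18 on the log2 scale (SE, 95% interval -0.41 to 0.38, edgeR, Benjamini-Hochberg adjusted p = 0.954), and its sign turned with library totals as the scaling, at 0.18. The interval bounds the diet effect that could have been missed.

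*Mttp*, the lipid transfer protein that loads ApoB, had 131.8 and 156.6 CPM under Control and 247.2 and 257.9 CPM under EtOH in WT. The *Elf4-/-* values were 190.9 and 181.4 CPM under Control and 277.8 and 235.0 CPM under EtOH. All 4 EtOH libraries lay above all 4 Control libraries, as 13.9% of all genes did. In WT the log2 fold change was 0.81 ± 0.21 (SE, 95% interval 0.34 to 1.27, edgeR, Benjamini-Hochberg adjusted p = 0.0233), and in *Elf4-/-* it was 0.46 ± 0.21 (SE, adjusted p = 0.236). The WT call was lost without WT Control replicate 1 (0.69, adjusted p = 0.115), WT EtOH replicate 1 (0.84, adjusted p = 0.102), WT EtOH replicate 2 (0.77, adjusted p = 0.136) or either *Elf4-/-* Control library (0.81, adjusted p = 0.0506 and 0.0504), and it stood in 11 of 16 alternatives. Averaged over the genotypes, *Mttp* rose by 0.63 ± 0.15 (SE, edgeR adjusted p = 0.0115), 1.55-fold, a call lost without WT EtOH replicate 2 (0.61, adjusted p = 0.0536) or *Elf4-/-* Control replicate 2 (0.62, adjusted p = 0.0591).

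The mean ratio of *Mttp* to its partner *Apob* was higher under EtOH in both genotypes, with no test. On the log2 scale it was -3.64 ± 0.15 under Control and -2.72 ± 0.27 under EtOH in WT, and -3.15 ± 0.09 and -2.76 ± 0.25 on the same diets in *Elf4-/-* (SD, n = 2 each). A ratio within a library is free of scaling, and it shows unequal change only. Against *Alb*, the log2 ratio of *Mttp* was -7.96 ± 0.07 and -6.53 ± 0.20 in WT and -7.81 ± 0.10 and -6.92 ± 0.47 in *Elf4-/-* (SD, n = 2 each), a pair chosen after the values were seen.

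Of the genes that act on triglyceride-rich particles, *Apoa5* passed the test in WT, and *Apoc1*, *Apoc2* and *Apoc3* did not. *Apoa5*, whose product favours the breakdown of plasma triglyceride by lipoprotein lipase, had 448.6 and 650.0 CPM under Control and 1643.6 and 1280.5 CPM under EtOH in WT, with no overlap, as for 34.1% of all genes in that direction. In *Elf4-/-* it had 932.5 and 848.0 CPM under Control and 506.2 and 1245.4 CPM under EtOH. The *Elf4-/-* EtOH libraries thus lay on either side of the Control pair, 1.30 apart on the log2 scale. The log2 fold change in WT was 1.41 ± 0.40 (SE, 95% interval 0.52 to 2.30, edgeR, Benjamini-Hochberg adjusted p = 0.0326). The call was lost without WT Control replicate 1 (1.17, adjusted p = 0.168) or replicate 2 (1.70, adjusted p = 0.0693), without WT EtOH replicate 1 (1.22, adjusted p = 0.156) or replicate 2 (1.58, adjusted p = 0.092), and without *Elf4-/-* Control replicate 1 or 2 (1.41 each, adjusted p = 0.0573 and 0.0571). It stood in 10 of 16 alternatives. In *Elf4-/-* the value was -0.02 ± 0.39 (SE, 95% interval -0.89 to 0.85, adjusted p = 0.979), and its sign turned with the library left out, from -0.84 to 0.48. Averaged over the genotypes, *Apoa5* stood at 0.69 ± 0.28 (SE, edgeR adjusted p = 0.0873) and was called in 3 of 15 alternatives, among them without *Elf4-/-* EtOH replicate 1 (0.95, adjusted p = 0.00558).

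Whether the *Apoa5* response differed by genotype was tested as the interaction. It was -1.44 ± 0.56 on the log2 scale (SE, 95% interval -2.67 to -0.20), with an edgeR p of 0.0272 before and 0.434 after Benjamini-Hochberg adjustment over all genes. It was the only member with an unadjusted p under 0.05 in this test, beside 10.1% of all genes. Without *Elf4-/-* EtOH replicate 2 the interaction was -2.24 (edgeR, adjusted p = 0.0282), and its adjusted p ranged from 0.0282 to 0.847 over 15 alternatives. Within the chromosome 9 cluster, the log2 ratio of *Apoa5* to *Apoa1* counts went from -4.87 ± 0.11 under Control to -1.07 ± 0.41 under EtOH in WT, and from -4.10 ± 0.26 to -2.91 ± 0.68 in *Elf4-/-* (SD, n = 2 each).

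*Apoc3*, which encodes an inhibitor of lipoprotein lipase and of remnant uptake, had 2247.9 and 2981.4 CPM under Control and 1745.1 and 1564.8 CPM under EtOH in WT. Without intestinal *Elf4* the values were 2566.6 and 2874.9 CPM under Control and 2477.4 and 1973.3 CPM under EtOH. EtOH libraries were lower within each genotype without overlap, as for 32.7% of all genes in WT and 26.3% in *Elf4-/-*. The log2 fold change was -0.66 ± 0.28 in WT (SE, edgeR, Benjamini-Hochberg adjusted p = 0.117) and -0.29 ± 0.28 in *Elf4-/-* (adjusted p = 0.586), and the averaged value was -0.47 ± 0.20 (adjusted p = 0.0969). DESeq2 called *Apoc3* in WT and in the average (adjusted p = 0.0395 and 0.0292), and it was called in 1 of 16 and 1 of 15 alternatives.

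*Apoc2*, the cofactor that lipoprotein lipase needs, was nearly absent from the counts, with 12 and 39 counts under Control and 54 and 39 under EtOH in WT. In *Elf4-/-* there were 117 and 47 counts under Control and 30 and 47 under EtOH. Replicates differed by up to 1.57 on the log2 scale, and the WT diets overlapped. No difference was detectable, with a diet effect of 0.19 ± 0.53 in WT and -0.79 ± 0.50 in *Elf4-/-* (log2, SE, edgeR Benjamini-Hochberg adjusted p = 0.828 and 0.388). Given the exons shared with *Gm44805*, these counts are uncertain as a measure of the gene. *Apoc1*, which encodes an inhibitor of lipoprotein uptake, had 6101.6 and 7041.6 CPM under Control and 4268.8 and 4366.8 CPM under EtOH in WT. These did not overlap, as for 32.7% of all genes in that direction. In *Elf4-/-*, *Apoc1* had 5068.7 and 6134.7 CPM under Control and 3680.2 and 5784.6 CPM under EtOH, which overlapped. Its diet effect was -0.61 ± 0.32 in WT and -0.42 ± 0.23 in the average (log2, SE, edgeR adjusted p = 0.2 and 0.185), and it was called in 1 of 15 alternatives of the average.

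*Apoe*, the ligand of the low density lipoprotein receptor family, is made by hepatocytes and by macrophages. It had 8026.0 and 14230.9 CPM under Control and 18280.0 and 18778.9 CPM under EtOH in WT. The *Elf4-/-* values were 12020.8 and 15049.5 CPM under Control and 12034.0 and 17856.8 CPM under EtOH. The WT diets did not overlap, as for 34.1% of all genes in that direction. The WT Control libraries stood 0.83 apart on the log2 scale. The log2 fold change of 0.74 ± 0.39 (SE, 95% interval -0.14 to 1.61) did not pass the test (edgeR, Benjamini-Hochberg adjusted p = 0.205). It was called in 1 of 16 alternatives, library totals alone (1.16, adjusted p = 0.0416), and ran from 0.38 to 1.21 over them. The log2 ratio of *Apoe* to *Apoc1* counts was 0.71 ± 0.44 under Control and 2.10 ± 0.00 under EtOH in WT, and 1.27 ± 0.03 and 1.67 ± 0.06 on these diets in *Elf4-/-* (SD, n = 2 each).

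Macrophage markers varied with the groups beside *Apoe*. The summed level of 10 Kupffer cell and macrophage markers, 9 of them with at least 10 counts in every library, was 217.5 to 286.6 CPM under Control and 691.7 to 772.6 CPM under EtOH in WT. In *Elf4-/-* it was 204.4 to 209.6 CPM under Control and 280.7 to 304.4 CPM under EtOH. Markers of sinusoidal endothelium (6 genes) had 49.9 to 95.5 CPM under Control and 244.9 to 294.0 under EtOH in WT, and those of stellate cells (7 genes) 31.6 to 70.3 and 255.8 to 336.2. In *Elf4-/-* the sinusoidal markers had 132.8 to 138.9 CPM under Control and 125.1 to 193.2 under EtOH, which overlapped, and the stellate markers 96.2 to 127.2 and 203.1 to 324.2, which did not. The part of these cells in the *Apoe* levels was not tested.

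The genotype comparisons asked how livers differed with and without intestinal *Elf4* under each diet. Under EtOH none of the 10 members passed the test, beside 0.143% of all genes, and 1 had an unadjusted p under 0.05, beside 10.5%. That member was *Apoa1*, with 4207.6 and 2190.7 CPM in WT EtOH against 5323.9 and 6700.2 in *Elf4-/-* EtOH and a log2 difference of 0.91 ± 0.41 (SE, 95% interval 0.00 to 1.82, edgeR, unadjusted p = 0.0497 and adjusted p = 0.475). *Apoa5* stood at -0.74 ± 0.39 (SE, adjusted p = 0.562 by edgeR). Leaving out replicate 2 of *Elf4-/-* EtOH moved it to -1.54 (edgeR adjusted p = 0.0316), the only setting of 16 in which a member was called. Under Control none passed, beside 0.0143% of all genes. *Apoa4* alone had an unadjusted p under 0.05, beside 7.31% of all genes, with a log2 difference of 0.76 ± 0.32 (SE, 95% interval 0.06 to 1.47, edgeR, unadjusted p = 0.0371 and adjusted p = 0.661). DESeq2 called no member in either genotype comparison, and averaged over the diets no member passed by edgeR at an adjusted or unadjusted p of 0.05, beside 0.136% and 7.94% of all genes.

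The interaction showed whether the diet responses themselves differed. For *Apoa1* it was 0.99 ± 0.57 (log2, SE, 95% interval -0.29 to 2.27, edgeR, Benjamini-Hochberg adjusted p = 0.607), so the smaller value in *Elf4-/-* was not shown to differ from that in WT. For *Mttp* it was -0.35 ± 0.29 (adjusted p = 0.743). None of the 10 members was called, beside 0% of all genes, and at an unadjusted p under 0.05 there were 1411 genes in all. DESeq2 called 111 genes and 0 members.

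Scaling bears on these values, since the share of mitochondrial counts differed between the WT diets. With library totals alone in place of TMM, the median over all genes of the log2 fold change in WT moved by 0.44, and 84.4% of calls were higher (3422 higher, 634 lower) in place of 50.2%. For the averaged diet effect, 73.8% were higher (2984 and 1057) in place of 50.5%. *Apoa1* kept its lower level and *Apoa5* and *Mttp* their higher level in WT under all 4 scalings. *Apob* alone changed sign, from -0.11 to 0.32 with library totals and to 0.01 with totals that leave out mitochondrial genes.

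**Figure D4:**
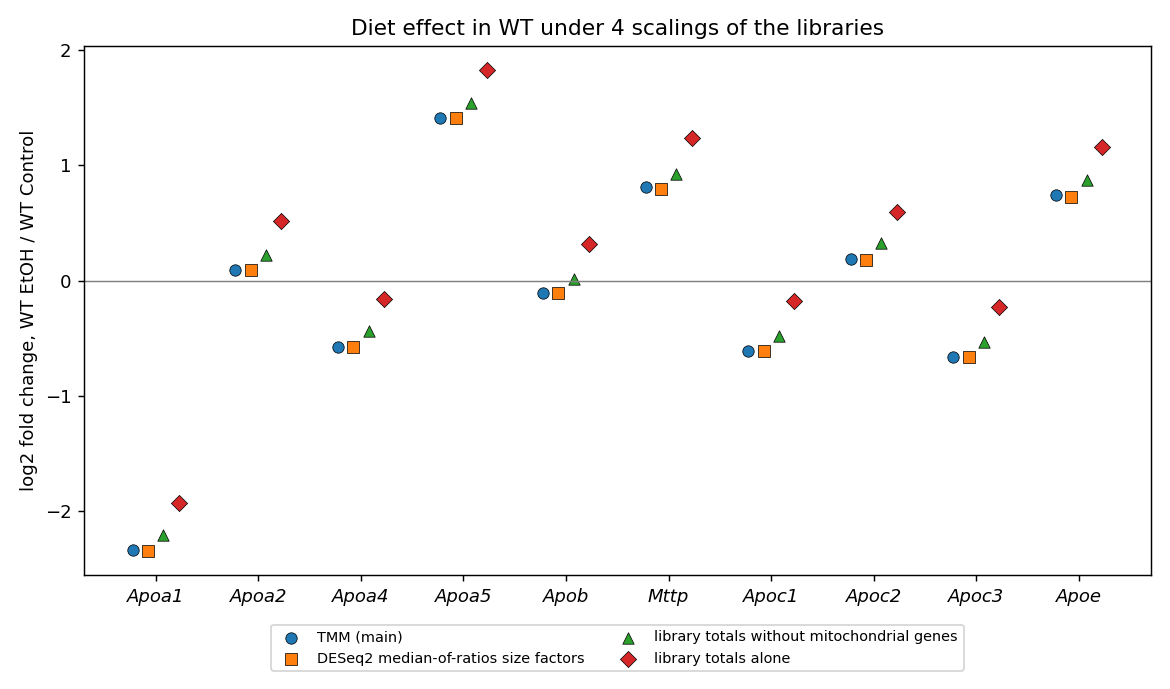
Log2 fold change of each member between WT EtOH and WT Control under 4 scalings of the libraries, TMM, DESeq2 size factors, library totals without mitochondrial genes and library totals alone. Library totals alone move the members upward by about 0.44, and *Apob* alone crosses 0.

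The wider pathway held 72 listed genes, of which 71 were in the table and tested. In WT 12 were higher and 12 lower, 33.8% in all, beside 21.6% of all genes, with a median log2 fold change of -0.01. The genes that export and remodel HDL counted 5 higher and 1 lower of 15, the VLDL assembly genes 3 and 3 of 17, receptors and their regulators 3 and 1 of 13, transcription factors 0 and 3 of 15, the minor apolipoproteins 0 and 4 of 9, and the genes of *Apob* mRNA editing 1 and 0 of 2. In *Elf4-/-* 2 were higher and 1 lower, 4.23% beside 2.89%, and in the average 15 were higher and 11 lower, 36.6% beside 28.0%. None of the 71 was called in a genotype comparison or in the interaction.

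Among the higher genes in WT, *Cd36*, a fatty acid and lipoprotein scavenger receptor, went from 5.56 ± 1.36 to 50.9 ± 25.6 CPM (SD, n = 2), which is 3.19 ± 0.47 on the log2 scale (SE, Benjamini-Hochberg adjusted p = 0.00299 by edgeR). *Ces1d*, a carboxylesterase that releases stored triglyceride for VLDL, rose from 194.4 ± 57.1 to 1371.0 ± 555.1 CPM (log2 2.82, adjusted p = 0.00248), and its reads may be split with near-identical *Ces1* copies. *A1cf*, the cofactor of the enzyme that edits *Apob* mRNA, rose from 12.8 ± 1.43 to 35.1 ± 2.87 CPM (log2 1.46, adjusted p = 0.00277). *Lipg*, endothelial lipase, and *Abcg1*, a cholesterol exporter, rose by 2.10 and 1.88 on the log2 scale (edgeR adjusted p = 0.00348 and 0.00556). Both stayed below 20 CPM in the group means, and in WT the endothelial and macrophage markers above were also higher under EtOH. In *Elf4-/-*, mean *Lipg* went from 12.1 CPM under Control to 9.28 under EtOH, and mean *Abcg1* from 3.39 to 5.06. There the macrophage markers were higher under EtOH, and the endothelial markers overlapped between the diets. The part of these cells in the levels of *Lipg* and *Abcg1* was not tested.

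Among the lower genes in WT, *Nr1d1*, a clock repressor known to act on apolipoprotein genes, went from 213.4 ± 23.1 to 29.8 ± 11.9 CPM (SD, n = 2), which is -2.84 ± 0.37 on the log2 scale (SE, Benjamini-Hochberg adjusted p = 0.0022 by edgeR). *Apoc4*, which lies between *Apoc2* and *Apoc1* on chromosome 7, fell from 747.5 ± 106.0 to 300.6 ± 8.10 CPM (log2 -1.31, adjusted p = 0.00738). *Apof*, an apolipoprotein of HDL and low density lipoprotein, fell from 833.0 ± 89.6 to 360.4 ± 59.6 CPM (log2 -1.21, adjusted p = 0.0082). *Sort1*, a sorting receptor that binds ApoB, and *Cideb*, a lipid droplet protein that helps to lipidate VLDL, fell by 1.24 and 1.05 on the log2 scale (adjusted p = 0.00817 and 0.00995). Of the exonic bases of *Cideb*, 76.3% face *Nop9* on the opposite strand.

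In *Elf4-/-* the 3 called genes were *Cd36*, *Vldlr* and *Nr1d1*. *Cd36* went from 5.95 ± 0.444 to 62.2 ± 33.2 CPM (SD, n = 2, log2 3.39 ± 0.46, edgeR, Benjamini-Hochberg adjusted p = 0.00972), and *Nr1d1* from 104.1 ± 38.3 to 27.9 ± 9.91 CPM (log2 -1.90 ± 0.36, adjusted p = 0.0284). *Vldlr*, a receptor for VLDL, went from 2.74 ± 1.34 to 12.9 ± 5.25 CPM (log2 2.18 ± 0.47, adjusted p = 0.0414). In the average of both genotypes, the lowest p-values among higher genes were those of *Cd36*, *A1cf*, *Ces1g*, *Vldlr* and *Abcg1* (log2 3.29, 1.11, 1.83, 1.76 and 1.22). Among lower genes they were those of *Nr1d1*, *Ppargc1b*, *Scarb1*, *Sort1* and *Apoc4* (log2 -2.37, -1.43, -0.78, -0.84 and -0.85). *Scarb1* encodes the HDL receptor of the liver and *Ppargc1b* a coactivator of lipid genes, with edgeR adjusted p = 0.00593 and 0.00326.

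**Figure D5:**
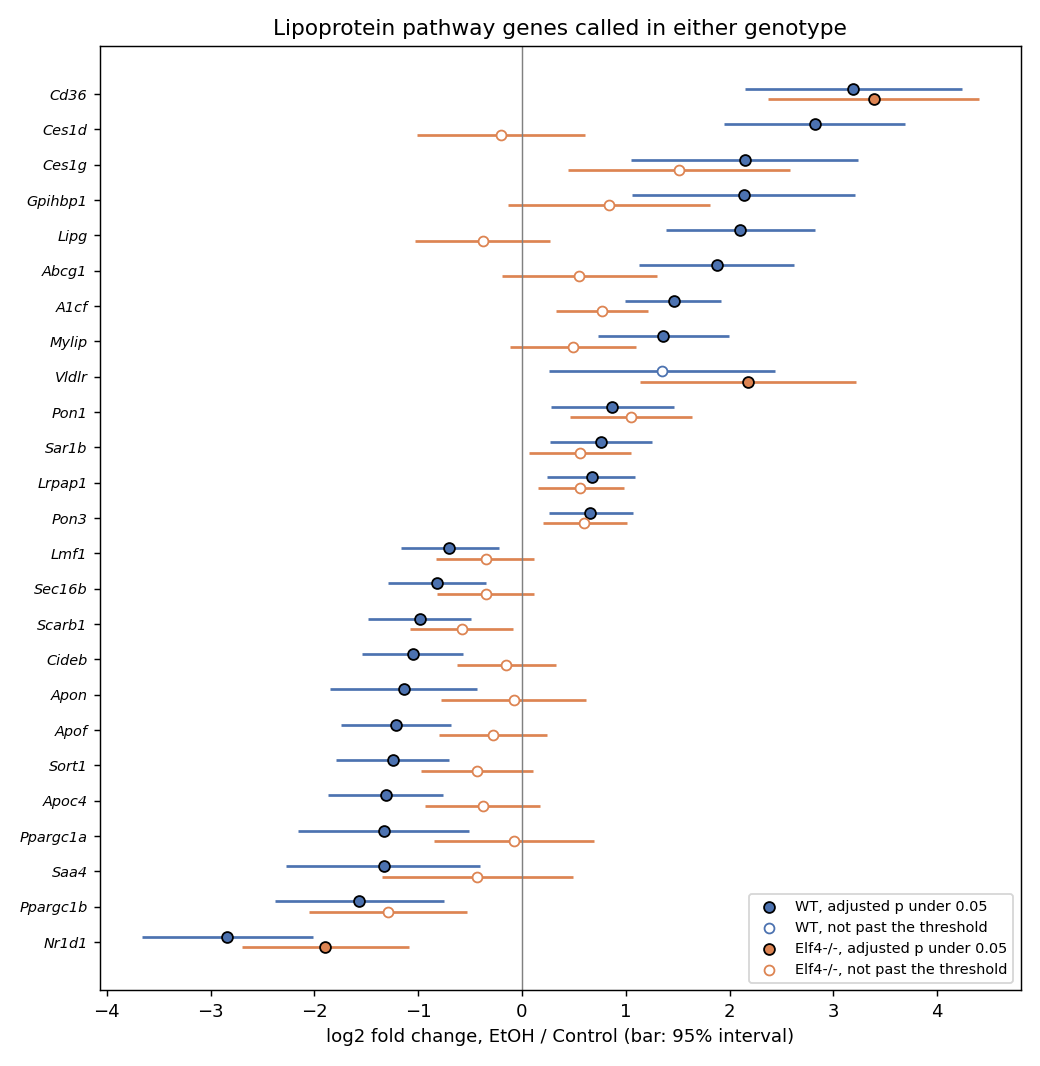
Log2 fold changes of EtOH against Control with 95% intervals in WT and in *Elf4-/-* for the pathway genes that passed an adjusted p of 0.05 in either genotype (filled points). *Cd36* and *Nr1d1* are filled in both genotypes, *Vldlr* in *Elf4-/-* only, and the difference between the genotypes passed the test for none of them.

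Members varied together to a different degree over the 8 libraries, which share diet and genotype groups, so the values are descriptions. Pearson's r of log2 CPM was 0.90 between *Apoa1* and *Apoc3*, 0.86 between *Apoa5* and *Apoe*, and 0.81 between *Apoa4* and *Apoc3*. It was -0.83 between *Apoc1* and *Mttp* and -0.80 between *Apoa1* and *Mttp*. *Apoa1* varied most of the members, with an SD of log2 CPM of 1.11 and a 9.15-fold range. Among 9389 other genes whose mean reached 50 counts, those most like *Apoa1* were *Slc17a4* (r = 0.995), *Ftcd* (0.989), *Ttc39c* (0.987), *Tmem106c* (0.984) and *Rassf3* (0.983) over 8 libraries. *Ftcd*, a liver enzyme of histidine and folate metabolism, had 824.1 ± 153.5 CPM under Control and 264.0 ± 34.8 under EtOH in WT, and 783.0 ± 51.9 and 448.9 ± 41.7 on these diets in *Elf4-/-* (SD, n = 2). *Slc17a4*, an anion transporter, had 70.7 ± 16.1, 18.2 ± 8.11, 70.4 ± 2.50 and 29.4 ± 6.02 CPM (SD, n = 2) in the same order.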

How the data were processed

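Liver RNA of 8 mouse libraries was sequenced in 4 groups of 2. The authors mapped reads to mm10 with HISAT2, sorted them with SAMtools, counted them per gene with HTSeq and tested them with DESeq2. Versions, annotation and strand setting are not given in the sources used here. The deposited values are whole-number counts per gene symbol, not normalized. Reads of overlapping genes or near-identical copies may be lost or split.

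Genes were filtered with filterByExpr by group (13993 of 19267 kept, at least 99.8% of counts) and scaled by TMM. All libraries entered 1 model of 4 groups in edgeR 4.0.16 (R 4.3.3) with no covariate, and 7 contrasts were tested with the quasi-likelihood test and Benjamini-Hochberg adjustment over all genes, at a threshold of 0.05. The SE is the log2 fold change over the root of F, and intervals are 95% with 10 degrees of freedom. Log2 CPM used a prior count of 2, log2 ratios a pseudocount of 0.5. Library totals were 6171051 to 9157362 counts. The 12 to 117 counts of *Apoc2* per library limit its precision, and its reads can be ambiguous. Scripts were tested on simulated data of 13667 genes, for diet in WT only. Of 112 genes changed by 1 on the log2 scale, 22.3% were called, and of 88 changed by 2, 94.3% were called. Of all calls there, 7.69% were false. Only those 112 and 88 genes were changed there, while 21.6% of genes were called for diet in WT in the data. The shares recovered therefore need not hold for the data, where changes near 2-fold may still be missed.

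The members, the pathway and marker lists and the naming rule were chosen with earlier results of these data known. The rule named all members, up to 5 called pathway genes of lowest p per contrast and direction, and the 5 genes most like the member that varied most. Alternatives were DESeq2 1.42.0, its size factors, library totals with and without mitochondrial genes, no filter, a mean of 10 counts, a replicate block, a fit of only the libraries compared, and leaving out each library. Same-numbered libraries did not deviate together (correlations of -0.13 to 0.11), so the numbers were not taken as pairs. Coordinates come from GENCODE M21 and upstream sequences from RefSeq, both on GRCm38, the assembly of mm10.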

Additional observations from a re-analysis of the deposited data

How the results depend on the processing

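The diet calls on *Apoa1* in WT and in the average of both genotypes kept their direction in all alternatives, as did those on *Apoa5* and *Mttp* in WT and on *Apoa4* and *Mttp* in the average, with the lost calls given above. The low counts of *Apoc2* limit its values. The cause of the shifts below was not tested. The fit of only the libraries compared gives no value for the interaction or the averages.

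With library totals alone, the log2 fold change of *Apob* turned to 0.32 for diet in WT, 0.18 for the averaged diet effect, 0.11 for genotype under Control, -0.17 for genotype under EtOH and -0.28 for the interaction. Under the same scaling, genotype under EtOH turned to -0.03 for *Apoa4*, -0.09 for *Apoc1*, -0.18 for *Apoc2* and -0.22 for *Mttp*, genotype under Control to 0.14 for *Apoa1*, and the interaction to -0.08 for *Apoc1* and -0.09 for *Apoc3*. With totals without mitochondrial genes, *Apob* turned to 0.01 for diet in WT, 0.04 for the averaged diet effect and -0.03 for genotype under EtOH, where *Apoc2* turned to -0.04 and *Mttp* to -0.07. The share of member counts without mitochondrial genes for mice given Control was 5.70% ± 1.08 (WT) and 6.06% ± 0.262 (*Elf4-/-*), and for those given EtOH 5.26% ± 0.065 (WT) and 4.94% ± 1.20 (*Elf4-/-*), each a mean ± SD of 2 libraries.

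Counts of genes called moved by over 1.5 times as follows. For diet in *Elf4-/-* (404 genes) the replicate block gave 240, the fit of only the libraries compared 40 and DESeq2 811, with 2 members by DESeq2. For genotype under EtOH (20) the block gave 10, only the libraries compared 0, no filter 50 and DESeq2 180. For genotype under Control (2) library totals gave 5, no filter 14, only the libraries compared 22 and DESeq2 79. For the interaction (0) no filter gave 7 and DESeq2 111. For the averaged genotype effect (19) totals without mitochondrial genes gave 12, the block 11, no filter 47 and DESeq2 118. DESeq2 called 5 members in the averaged diet effect. For diet in WT the block gave 2639 genes in place of 3025, and it changed no call on a member.

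Leaving out 1 library gave 626 to 4023 genes for diet in WT, 9 to 1683 for diet in *Elf4-/-*, 2115 to 4697 for the averaged diet effect, 0 to 366 and 0 to 53 for genotype under EtOH and under Control, 3 to 237 for the averaged genotype effect and 0 to 139 for the interaction. The lowest counts came without WT EtOH replicate 2 for diet in WT (626) and without *Elf4-/-* Control replicate 2 for diet in *Elf4-/-* (9), and the highest for diet in *Elf4-/-* (1683), genotype under EtOH (366) and the interaction (139) without *Elf4-/-* EtOH replicate 2. Members called ranged from 0 to 3 for diet in WT, 1 to 4 for the averaged diet effect, and 0 to 1 for genotype under EtOH and for the interaction. Signs turned among members near 0. For diet in WT the log2 fold change ran from -0.02 to 0.21 for *Apoa2*, -0.42 to 1.25 for *Apoc2* and -0.28 to 0.04 for *Apob*. For diet in *Elf4-/-* it ran from -0.84 to 0.48 for *Apoa5*, -0.19 to 0.40 for *Apoe*, -0.62 to 0.05 for *Apoc1* and -0.01 to 0.13 for *Apob*. For genotype under EtOH it ran from -0.10 to 0.13 for *Mttp*, -0.09 to 0.55 for *Apoa4*, -0.10 to 0.22 for *Apob*, -0.31 to 0.47 for *Apoc2* and -0.24 to 0.43 for *Apoc1*. For genotype under Control it ran from -0.06 to 0.24 for *Apoa2*, -0.13 to 0.28 for *Apoc3*, -0.07 to 0.76 for *Apoe* and -0.38 to 0.32 for *Apoa1*. The interaction ran from -0.39 to 0.15 for *Apoa2* and -0.01 to 0.65 for *Apoc1*. The averaged diet effect ran from -0.11 to 0.16 for *Apoa2*, -0.61 to 0.23 for *Apoc2* and -0.11 to 0.05 for *Apob*, and the averaged genotype effect from -0.10 to 0.17 for *Apoa2*, -0.42 to 0.24 for *Apoa5*, -0.23 to 0.10 for *Apoc1*, -0.19 to 0.23 for *Apoe* and -0.11 to 0.05 for *Apob*.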
